A study of Mus musculus with 43 samples.

Results

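The counts of 5 RNAs were followed across the epididymis and its sperm. They are both copies of 7SL RNA (Rn7s1-201 and Rn7s2-201), vault RNA (Vaultrc5-201), the RNA of RNase P (Rpph1-201) and the RNA of RNase MRP (Rmrp-201), each taken as the row that bears this transcript name and called below by its gene symbol, out of 5364 RNAs listed over the tissue, fluid and sperm tables. All 5 were listed and passed the filter on low counts in each of the 3 tables. The study sequenced small RNAs of FVB mice 8 to 12 weeks old, either WT or KO. The KO mice were homozygous for a CRISPR-Cas9 deletion of the locus of Rnase9, Rnase10, Rnase11 and Rnase12, and lack it in all cells, so the deletion is not confined to the epididymis. Whole tissue of the caput, corpus and cauda epididymis, the proximal, middle and distal segments of the duct in which sperm mature, gave 3 WT and 3 KO libraries each, except that the KO corpus had 2. Luminal fluid of the same segments, spun free of sperm, debris and extracellular vesicles, gave 3 WT and 3 KO libraries per segment, and sperm of the cauda gave 4 WT and 4 KO libraries. Each fluid or sperm library held the RNA of 3 mice pooled before library preparation, and for tissue the pooling is not given in the sources used here.

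These RNAs are short noncoding transcripts of RNA polymerase III. 7SL RNA is the scaffold of the signal recognition particle, which halts ribosomes that make secreted or membrane proteins and docks them on the endoplasmic reticulum, so secretory epithelia such as that of the epididymis depend on it. Rpph1 is the catalytic RNA of RNase P, which cuts the 5′ leader from precursor tRNAs. Rmrp is the related RNA of RNase MRP, which shares most of its protein subunits with RNase P and cleaves precursor rRNA in the nucleolus. Vault RNA is a minor component of the vault, a large hollow ribonucleoprotein of the cytoplasm whose function is not settled.

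Rn7s1 (ENSMUSG00000099021) lies on the + strand of chromosome 12 and Rn7s2 (ENSMUSG00000099250) on the - strand, 201.588 kb away, in GENCODE gene models of GRCm38, the same assembly as the mm10 used by the authors. Both are annotated as misc_RNA of 300 bases and their sequences are identical. Rpph1 (ENSMUSG00000092837) is a ribozyme of 319 bases at chr14:50807449-50807767 on the - strand. It overlaps the coding gene Ccnb1ip1 on the same strand, and it lies 199.984 kb from Rnase10, the nearest gene of the deleted cluster. Rmrp (ENSMUSG00000088088) is a ribozyme of 271 bases at chr4:43492788-43493058 on the - strand, within a lincRNA entry of the same name and overlapping Ccdc107 on the opposite strand. Reads from genes that overlap on the same strand cannot be told apart, nor can those from opposite strands where the counting did not use strand.

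The identical 7SL copies could not be told apart by a read that lies wholly within them, and another copy, Rn7s6, differs from them in part.

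Counted from 1 at the 5′ end of Rn7s1, Rn7s1 and Rn7s6 are identical for 173 bases from base 42 to base 214 and have different 3′ ends from base 215 on. A read from the 173-base block counts on Rn7s1, Rn7s2 and Rn7s6 alike, whereas a read from the last 86 bases of Rn7s1 cannot count on Rn7s6. The annotation also has 2 miRNA-type entries inside Rn7s1. Gm47287 covers bases 143 to 212, within the shared block, and Gm47295 covers bases 224 to 300 with 2 bases beyond, within the part that Rn7s6 lacks. Reads counted on these entries are also counts of Rn7s1, so their share shows where along 7SL the fragments came from. How a read that crosses the border of an entry was counted is not given in the sources used here.

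The RNAs of RNase P and RNase MRP are shown to set how far their counts could be mixed with those of other RNAs. In the first 300 of the 319 bases of Rpph1 (chr14:50807468-50807767, - strand) capitals mark the 44 bases that lie outside any stretch of 16 or more bases shared with another listed RNA, 16 bases being the shortest read counted. In Rmrp (chr4:43492788-43493058, - strand) capitals mark the 26 bases in words of 8 or more bases that also occur in Rpph1.
Rpph1: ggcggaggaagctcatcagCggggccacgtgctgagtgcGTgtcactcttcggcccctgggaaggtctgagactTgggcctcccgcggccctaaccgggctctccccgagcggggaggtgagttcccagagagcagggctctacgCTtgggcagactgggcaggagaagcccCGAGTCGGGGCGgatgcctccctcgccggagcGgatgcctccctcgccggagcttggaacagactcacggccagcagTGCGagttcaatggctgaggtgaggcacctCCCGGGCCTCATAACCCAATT
Rmrp: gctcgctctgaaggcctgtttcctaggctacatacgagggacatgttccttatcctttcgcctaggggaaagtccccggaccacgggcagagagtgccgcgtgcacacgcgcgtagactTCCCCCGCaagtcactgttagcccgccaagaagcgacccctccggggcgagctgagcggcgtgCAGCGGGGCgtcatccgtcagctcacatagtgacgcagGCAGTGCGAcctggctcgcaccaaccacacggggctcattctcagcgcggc

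Rpph1 and Rmrp were 51.9% identical over an alignment of 339 positions, 176 of which matched. Rmrp shared no stretch of 16 bases with any of the 2490 listed RNAs that have a sequence, so a read could count on Rmrp and another of these RNAs only by way of mismatches. Rpph1 shared 80.3% of its bases in such stretches with 11 listed RNAs, among them the RNase P-like copies Rprl1 (71.2% identical), Rprl2 (75.5%) and Rprl3 (75.8%). Beside its identical copy, Rn7s1 shared most with Gm24105 (69.3% of its bases) and Rn7s6 (64.7%). The counts of 7SL are therefore partly counts of its copies. Short reads of Rpph1 could also count on its copies, while longer reads may tell them apart. The counts of Rmrp are not shared, by this measure. Vaultrc5 (ENSMUSG00000065145, misc_RNA of 143 bases) shared 55.2% of its bases with 1 RNA, Gm25403, which had at most 0.452% of the counts of Vaultrc5 in tissue, 2.93% in fluid and 10.4% in sperm.

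Tissue was sequenced by ARM-seq and fluid and sperm by OTTR-seq, both small RNA protocols for modified or structured RNA, on libraries cut to small RNA sizes. The counts of RNAs longer than the reads are thus counts of their fragments. Summed counts ran from 30.1 M to 249.7 M (mega counts) per tissue library, from 1.95 M to 12.3 M per fluid library and from 1.13 M to 62.1 M per sperm library. In sperm, 3 of the 4 KO libraries but 1 of the 4 WT libraries had over 10 M counts, so depth moved with genotype there. The lowest count of a member was 280 in the tissue libraries, 26 in those of fluid and 24 in those of sperm. No row of the 3 tables carries the name of Rnase9, Rnase10, Rnase11 or Rnase12, so the deletion could not be checked with these small RNA counts. In the section field of the sample labels 1 WT caput tissue library (replicate 3) and all 6 caput fluid libraries are given as cauda, against their titles, which were followed. miRNAs of the epithelium (5 listed of 5) summed to 4.25 to 33.5 CPM of the summed counts in tissue, 28.3 to 289 in fluid and 5.52 to 23.3 in sperm. Those of male germ cells summed to 0.0247 to 0.421 (2 listed of 3), 1.85 to 29.8 and 15.9 to 57.1 (3 of 3 each), those of smooth muscle (2 of 2) to 18.6 to 231, 72.3 to 433 and 4.42 to 20.0, those of leukocytes (2 of 2) to 0.0178 to 0.233, 5.20 to 86.7 and 3.86 to 11.3, and those of red blood cells to 0.0 to 0.0442 (1 of 2), 16.2 to 149 and 1.04 to 61.6 (2 of 2 each).

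7SL was by far the most counted of the 4 distinct RNAs in every group. Its counts on Rn7s1 and Rn7s2 differed by at most 0.327% among tissue libraries, 0.0823% in fluid and 0.0839% in sperm. Rn7s1 therefore stands for both hereafter. Counting 7SL once, the 4 RNAs made up 0.0338% to 0.201% of the counts of a tissue library, between 0.136% and 0.731% of those of a fluid library and between 0.0492% and 0.145% of those of a sperm library. Levels are given as CPM, the counts per mega count of the library, scaled by TMM within a table, and are comparable within a table only.

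In WT tissue, Rn7s1 had 655, 477 and 1329.6 CPM in the 3 caput libraries, 1181, 461 and 619 in the corpus and 468, 455 and 468 in the cauda. In KO tissue it had 1183, 720.4 and 793 CPM in the caput, 1470.4 and 1231 in the corpus and 1385, 1519 and 804 in the cauda. The WT cauda libraries had the lowest mean and the smallest spread of the 6 tissue groups (464 ± 7.48 CPM, SD, n = 3), and all 3 KO cauda libraries lay above them. The highest WT caput value belongs to replicate 3, the library whose section label disagrees.

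In WT fluid, Rn7s1 had 5812, 6303 and 8202 CPM in the caput, 3483, 3698 and 3290.0 in the corpus and 5902, 2316 and 4948 in the cauda. In KO fluid it had 4042, 6496 and 5448 CPM in the caput, 3178, 2844 and 2024 in the corpus and 3502, 4069.6 and 1415 in the cauda. The caput fluid had the highest mean in both genotypes, and its libraries did not overlap those of the corpus. By mean level Rn7s1 ranked 28 of the 2023 fluid RNAs in the WT caput, 49 in the WT cauda, 160 of 2480 in WT sperm and 93 to 157 of 3488 in WT tissue.

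Among the WT sperm libraries Rn7s1 had 919.6, 465, 544 and 1269 CPM, and among the KO libraries 1513, 986, 994 and 1595 CPM. These ranges overlapped. The WT mean was 799 ± 371 (SD, n = 4) and the KO mean 1272 ± 327 (SD, n = 4).

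**Figure D1:**
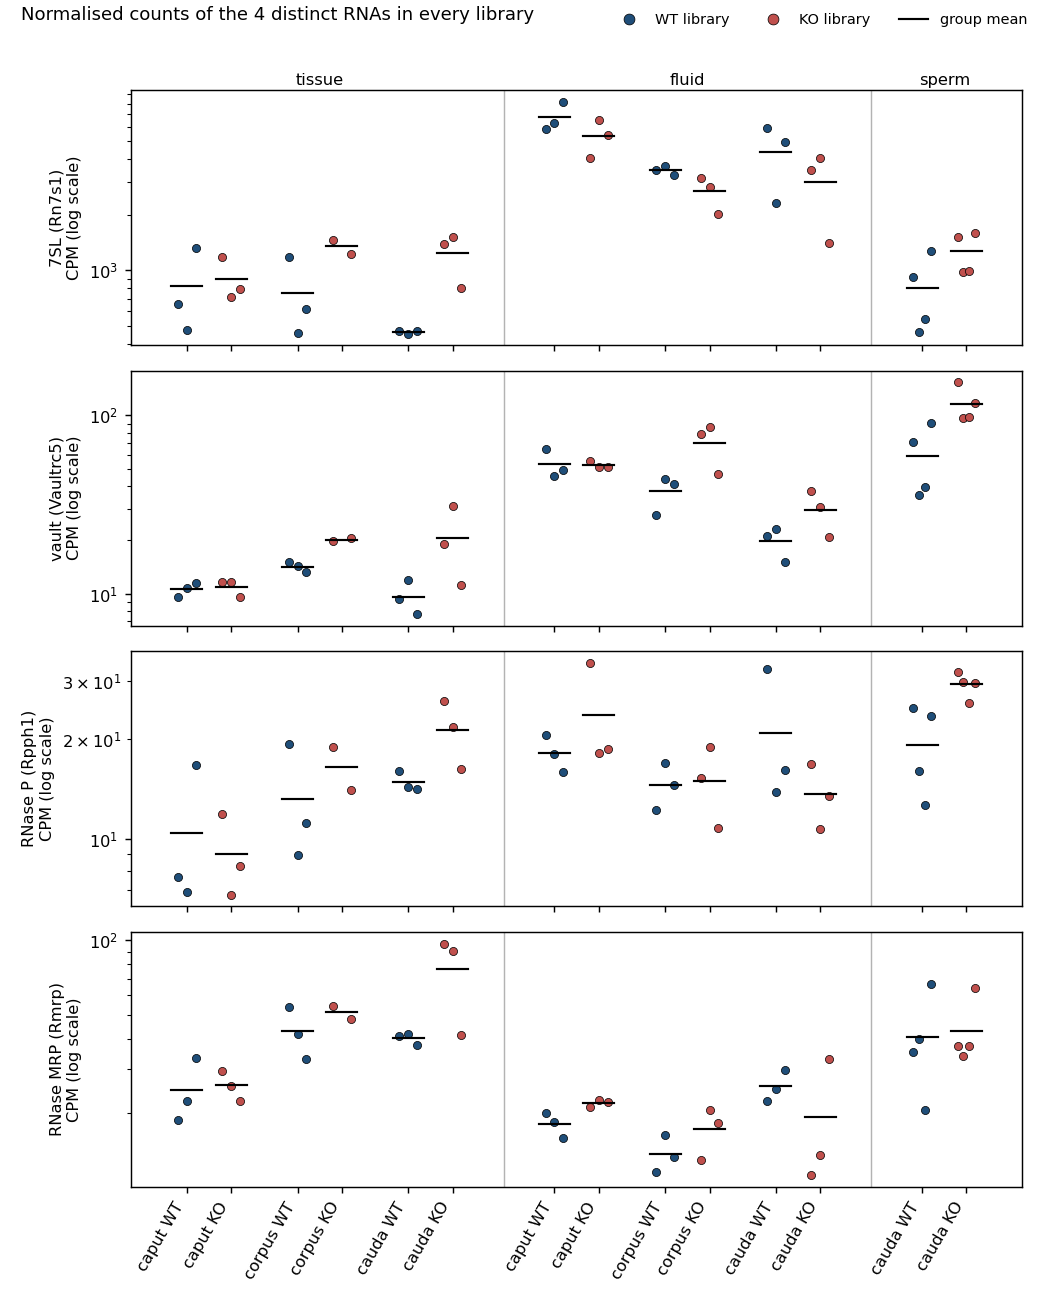
Level of 7SL (Rn7s1), vault RNA (Vaultrc5), RNase P RNA (Rpph1) and RNase MRP RNA (Rmrp) in CPM on log axes, with 1 point per library (WT blue, KO red) and a line at the arithmetic mean of each group, for tissue, fluid and sperm scaled separately. In the cauda tissue the 3 KO points of 7SL lie above the WT points at 455 to 468 CPM, and in fluid 7SL is highest in the caput.

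Vault RNA was low in tissue. WT libraries held 9.60, 10.8 and 11.5 CPM of Vaultrc5 in the caput, 15, 14.3 and 13.3 in the corpus and 9.29, 11.9 and 7.68 in the cauda, and KO libraries 11.6, 11.6 and 9.56 in the caput, 19.6 and 20.6 in the corpus and 19.0, 31.2 and 11.2 in the cauda. WT fluid had 65.1, 45.5 and 49.3 CPM in the caput, 27.5, 44.3 and 41.3 in the corpus and 21.2, 23.2 and 15.1 in the cauda, with no overlap between segments. KO fluid had 55.4, 51.3 and 51.3 CPM in the caput, 79, 85.6 and 46.8 in the corpus and 37.4, 30.6 and 20.8 in the cauda, so its highest libraries were of the corpus. In sperm, WT libraries had 71.2, 35.9, 39.7 and 90.7 CPM and KO libraries 153, 96.8, 97.7 and 117 CPM, and all 4 KO libraries lay above all 4 WT libraries.

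RNase MRP RNA had its lowest tissue means in the caput. They were 24.7 ± 7.58 CPM in the WT caput, 42.9 ± 10.3 in the corpus and 40.1 ± 2.06 in the cauda, and 25.9 ± 3.56 in the KO caput, 51.0 ± 4.28 in the corpus (n = 2) and 76.3 ± 30.4 in the cauda (SD, n = 3 unless given). The KO cauda libraries had 97.0, 90.6 and 41.4 CPM against 40.9, 41.7 and 37.8 in WT, so the lowest KO library was within the WT range. In fluid, group means of Rmrp lay between 13.7 and 25.8 CPM, and in sperm the means were 40.6 ± 19.1 in WT and 43.1 ± 13.9 in KO (SD, n = 4).

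Rpph1 was among the least counted. Its tissue means ran from 9.01 CPM in the KO caput to 21.3 in the KO cauda, its fluid means from 13.7 in the KO cauda to 23.6 in the KO caput, and its sperm libraries had 24.7, 16, 12.7 and 23.5 CPM in WT and 31.9, 29.6, 25.7 and 29.5 in KO. All 4 KO sperm libraries lay above the WT libraries. Set per length, the WT caput tissue had 2735 CPM per kb of Rn7s1, 91.2 of Rmrp, 74.3 of Vaultrc5 and 32.7 of Rpph1. These values count fragments, some of them shared with copies, so their order need not be that of the whole RNAs. The value of 7SL lay above the others by more than its SD, whereas the SDs of Rmrp and Vaultrc5 overlapped. In WT caput fluid the order was Rn7s1 (22574 CPM per kb), Vaultrc5 (373), Rmrp (66.7) and Rpph1 (57.0), where the SDs of the last pair overlapped. In WT sperm it was Rn7s1 (2664), Vaultrc5 (415), Rmrp (150) and Rpph1 (60.3), with no overlap of SDs between neighbours.

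The ratio of 2 RNAs within a library does not depend on scaling between libraries, and Rmrp was taken as the denominator because it shares no stretch with other RNAs. There were 10.9 to 40.1 counts of Rn7s1 per count of Rmrp in tissue (median 21.4 of 17 libraries), 42.9 to 517 in fluid (median 248 of 18) and 11.7 to 40.6 in sperm (median 26.2 of 8). Every fluid library thus lay above every tissue and sperm library, while the ranges of tissue and sperm overlapped almost wholly. For vault RNA the ratio was 0.196 to 0.514 for tissue, 0.506 to 6.16 for fluid and 0.902 to 4.12 for sperm. For Rpph1 the range was 0.214 to 0.502 for tissue, 0.409 to 1.60 for fluid and 0.353 to 0.871 for sperm. Tissue also differed from fluid and sperm in the protocol, so material and protocol cannot be told apart there, and in bulk samples fewer cells of a type and less RNA per cell cannot be told apart either.

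**Figure D2:**
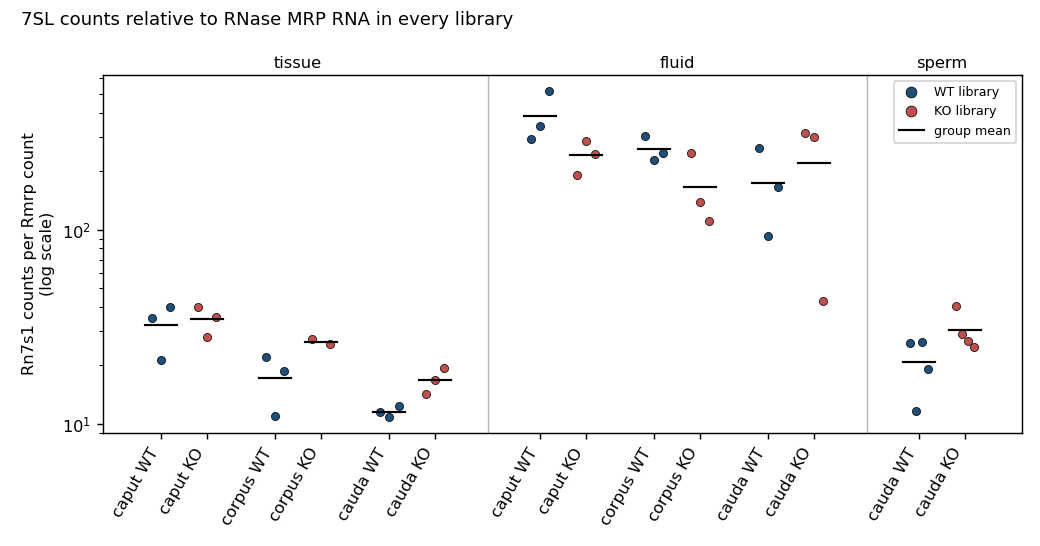
Counts of Rn7s1 per count of Rmrp in every library on a log axis, by material, segment and genotype. Fluid libraries lie between 42.9 and 517, above all tissue (10.9 to 40.1) and sperm (11.7 to 40.6) libraries, and the lowest fluid point is KO cauda replicate 3.

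Within tissue the ratio of Rn7s1 to Rmrp was lowest in the cauda. In WT it was 35.1, 21.4 and 40.0 in the caput, 22, 11 and 18.7 in the corpus and 11.5, 10.9 and 12.4 in the cauda. In KO it was 40.1, 27.9 and 35.4 in the caput, 27.2 and 25.7 in the corpus and 14.3, 16.8 and 19.4 in the cauda, so the cauda libraries of both genotypes lay below all caput libraries of the same genotype. KO cauda fluid replicate 3 stood apart from its group, with 42.9 counts of Rn7s1 per count of Rmrp against 313 and 300 in the other two. It also held 33.0 CPM of Rmrp against 11.2 and 13.5. Without it, KO and WT cauda fluid differed in Rmrp by -1.16 (adjusted p = 0.162 in edgeR) and in 7SL by -0.29 on the log2 scale, against -0.43 and -0.55 with it.

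The make-up of the 7SL counts differed between materials and along the fluid. The 3′ part (Gm47295) held 15.7% to 27.2% of the Rn7s1 counts in tissue (median 19.8%), 26.1% to 44.3% in sperm (median 36.2%) and 24.5% to 79.2% in fluid (median 56.4%). In fluid of the WT caput it held 70.9%, 79.2% and 75.5%, of the WT corpus 28.3%, 52.9% and 47.4% and of the WT cauda 24.5%, 25.9% and 28.2%. In the KO it held 63.2%, 73.7% and 75.4% in the caput, 60.8%, 59.8% and 45.8% in the corpus and 52.0%, 62.1% and 24.6% in the cauda. No caput fluid library overlapped a corpus or cauda fluid library of either genotype.

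Over both genotypes the 3′ part in cauda fluid differed from caput fluid by -36.8 percentage points (36.2% ± 16.5 against 73.0% ± 5.51, SD, n = 6 each, 2-sided exact permutation test, p = 0.00216, adjusted p = 0.00649 over 6 tests). Corpus fluid differed from caput fluid by -23.8 points (49.2% ± 11.9, n = 6, exact permutation p = 0.00216, adjusted p = 0.00649). Both tests took WT and KO libraries together and permuted them without regard to genotype. The 6 tests adjusted together include those within each genotype, on the same libraries. Within a genotype cauda fluid differed from caput fluid by -49.0 points in WT and -24.6 points in KO, each with an exact p of 0.1, the smallest that 3 against 3 libraries can give. Without cauda replicate 3, which stood apart, the KO value was -13.7 points (57.0% against 70.8%). Leaving out each library in turn gave -42.0 to -34.5 points for the cauda and -26.2 to -19.7 points for the corpus, with an exact p of at most 0.00649. This measure was chosen after the counts were seen, and the caput fluid libraries are those whose section label disagrees with their titles.

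The copy Rn7s6, a separate gene with its own 3′ end, had its lowest ratio to Rn7s1 in fluid. Its counts were 45.3% to 65.7% of those of Rn7s1 in tissue (median 59.2%), 43.4% to 55.5% in sperm (49.2%) and 8.07% to 25.6% in fluid (13.9%), so no fluid library reached the tissue or sperm range. In WT caput fluid Rn7s6 had 11.5%, 8.45% and 8.07%, and most counts lay on the 3′ part. In WT cauda fluid Rn7s6 had 8.75%, 20.5% and 9.63%, beside 24.5%, 25.9% and 28.2% on the 3′ part. Most Rn7s1 counts there thus lay on neither, and where along 7SL they came from was not tested. The entry Gm47287 of the shared block held 7.79% to 25.2% of the Rn7s1 counts in tissue, 3.56% to 17.3% in sperm and 1.07% to 4.37% in fluid. RNase P showed a gap between tissue and the other materials. Counts on Rprl3 were 47.9% to 103% of those on Rpph1 in tissue (median 62.8%), 4.53% to 24.5% in fluid (14.7%) and 0.0% to 17.1% in sperm (9.80%), so every tissue library lay above every fluid and sperm library. Rprl3 had as few as 4 counts in a fluid library and 0 in a sperm library. Which of the copies gave these reads was not tested.

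**Figure D3:**
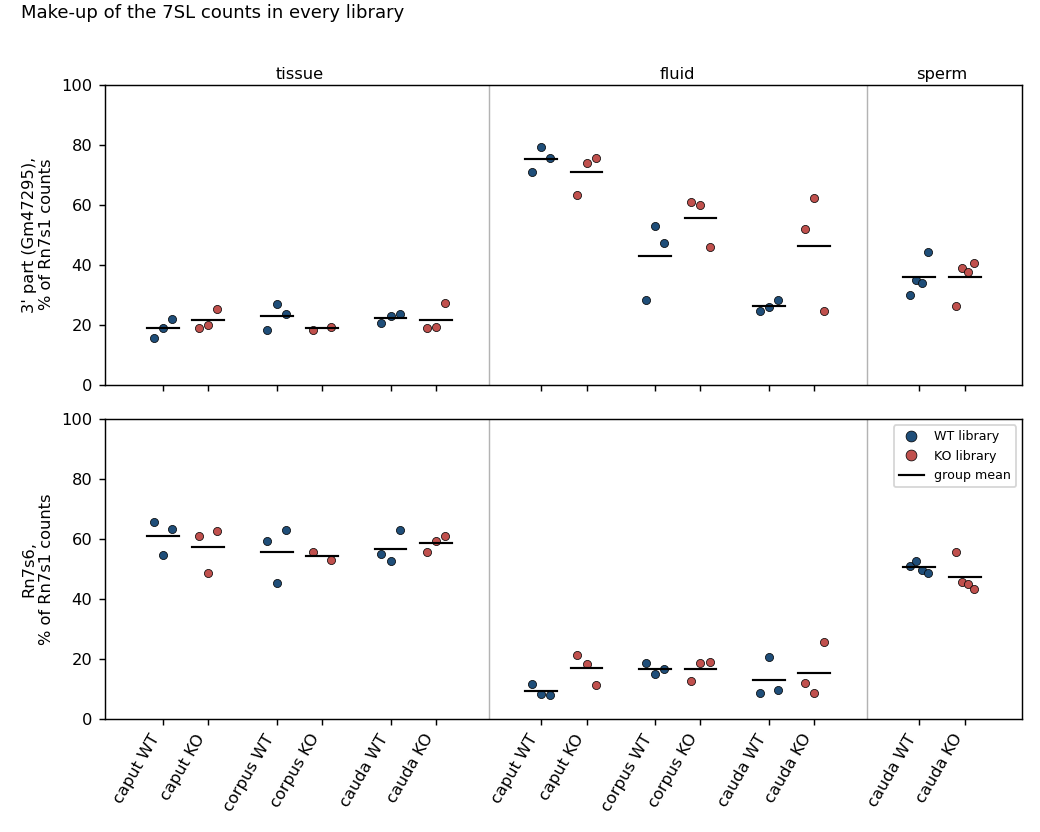
Counts on the 3′ part of 7SL (Gm47295, top) and on the copy without that part (Rn7s6, bottom) as a percentage of the counts on Rn7s1, per library, with a line at each group mean. In fluid the 3′ part falls from 63.2% to 79.2% in the caput to 24.5% to 62.1% in the cauda, and Rn7s6 stays at or below 25.6%.

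KO and WT were compared in each segment and material to ask whether loss of the RNase cluster changed these RNAs. In no comparison did edgeR call a member (adjusted p under 0.05 and a log2 fold change beyond 1 in size, adjusted over all RNAs of the table by the Benjamini-Hochberg method). The largest differences were in the cauda tissue, where all 4 distinct RNAs had positive values and 3 an unadjusted p under 0.05, and Rn7s1 had the highest log2 fold change of the 4 distinct RNAs there. DESeq2 called Rn7s1 and Rn7s2 in the cauda tissue and no member in the other 6 comparisons. Shares of all RNAs called are given here for the main edgeR fit only, and not for DESeq2 or the other alternatives. Of all RNAs tested, edgeR called 0.86% in the cauda tissue (1 higher and 29 lower in KO), 19.7% in the corpus fluid and 0.0% in the caput tissue, corpus tissue, caput fluid, cauda fluid and sperm.

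In the cauda tissue Rn7s1 was higher in KO by a log2 fold change of 1.41 ± 0.41 (SE, adjusted p = 0.124 in edgeR, 0.0302 in DESeq2, 0.00177 to 0.429 over the alternatives). Replicate numbers paired the WT and KO libraries of this segment by the correlation of their counts (r from 0.27 to 0.60), which the labels do not state. With the number as a block edgeR called both 7SL copies (1.38, adjusted p = 0.00177). Vaultrc5 was higher by 1.09 ± 0.33 (adjusted p = 0.134 in edgeR) and Rmrp by 0.93 ± 0.33 (adjusted p = 0.183), with KO replicate 3 within the WT range for each. Without that library Vaultrc5 was called (1.31, adjusted p = 0.0393 in edgeR). The difference of Rpph1 was 0.52 ± 0.38 (adjusted p = 0.543 in edgeR). When libraries were scaled by their totals only, which moved the median of all RNAs by -0.535, the values were 0.75 for Rn7s1, 0.48 for Vaultrc5, 0.24 for Rmrp and -0.094 for Rpph1. The median log2 fold change of all 3488 RNAs was 0.116, and that of the 4 distinct RNAs 1.01. In this comparison 2 of the 4 (7SL and Rpph1) had no overlap between WT and KO libraries, against 17.0% of all RNAs.

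In the caput tissue the members ranged from -0.21 (Rpph1) to 0.13 (7SL), none with an unadjusted p under 0.05, and 0 of the 4 distinct RNAs had groups that did not overlap (7.14% of all RNAs). In the corpus tissue 7SL was higher in KO by 0.84 ± 0.45 (adjusted p = 0.644 in edgeR) and Vaultrc5 by 0.51 ± 0.36 (adjusted p = 0.760), and 2 of the 4 distinct RNAs did not overlap between genotypes (27% of all RNAs). In the KO corpus the summed miRNAs of the epithelium (8.16 to 9.99 against 13.4 to 27.1 CPM of the summed counts), of smooth muscle (18.6 to 28.2 against 36.4 to 83.8) and of red blood cells (0.0106 to 0.0110 against 0.0222 to 0.0442, from 1 count against 1 to 5) were lower without overlap, and in the KO cauda so were those of leukocytes (0.0332 to 0.0594 against 0.0626 to 0.233, from 1 to 4 against 2 to 37 counts). Their part in the tissue values was not tested. The KO effect in cauda minus that in caput tissue was 1.28 ± 0.57 for Rn7s1 and 1.05 ± 0.46 for Vaultrc5 (unadjusted p = 0.0395 and 0.0352, adjusted p = 0.791 for both in edgeR), and 0.0% of RNAs were called for this difference.

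In fluid 7SL had negative values for KO against WT in all 3 segments, with log2 fold changes of -0.35 ± 0.38 in the caput, -0.38 ± 0.38 in the corpus and -0.55 ± 0.38 in the cauda (adjusted p = 0.819, 0.530 and 0.648 in edgeR). None of these passed. With scaling by RNAs other than tRNA and rRNA fragments, which moved the median of all RNAs by -0.81, 7SL was called lower in KO corpus fluid (-1.18, adjusted p = 0.0369 in edgeR). Vaultrc5 was higher in KO corpus fluid by 0.90 ± 0.37 (unadjusted p = 0.024, adjusted p = 0.0929 in edgeR), where all KO libraries lay above all WT libraries, and by 0.58 ± 0.37 in cauda fluid (adjusted p = 0.617). Under the same scaling as the 7SL call, the corpus value of Vaultrc5 was 0.13 (adjusted p = 0.784 in edgeR). Of the 4 distinct RNAs 1 had no overlap in the caput (26% of all RNAs), 2 in the corpus (36.1%) and 0 in the cauda (9.94%). No member was called for a KO effect that differed between cauda and caput fluid (adjusted p from 0.509 to 0.888 in edgeR, 0.0% of RNAs called). miRNAs of the epithelium were higher in KO fluid without overlap, at 236 to 289 against 97.0 to 168 CPM of the summed counts in the caput and 89.3 to 166 against 28.3 to 76.5 in the corpus. So were those of male germ cells, at 3.42 to 3.84 against 1.85 to 3.29 in the caput and 12.9 to 18.0 against 3.74 to 11.3 in the corpus, and those of leukocytes in the caput (12.3 to 19.4 against 5.20 to 9.24). The part of these miRNAs in the values of the members was not tested.

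In sperm, Vaultrc5 was higher in KO by 0.97 ± 0.44 (unadjusted p = 0.0458, adjusted p = 0.272 in edgeR), 7SL by 0.67 ± 0.40, Rpph1 by 0.59 ± 0.41 and Rmrp by 0.08 ± 0.46 (adjusted p from 0.453 to 0.944). Of the 4 distinct RNAs, 2 (Vaultrc5 and Rpph1) had no overlap between genotypes, against 9.4% of all RNAs. With depth over or under 10 M counts as a term, a setting added after the data were seen, Vaultrc5 was higher by 0.89 ± 0.49 (adjusted p = 0.497 in edgeR). Without WT replicate 4, the library with the highest WT level, it was called (1.29, adjusted p = 0.048 in edgeR).

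**Figure D4:**
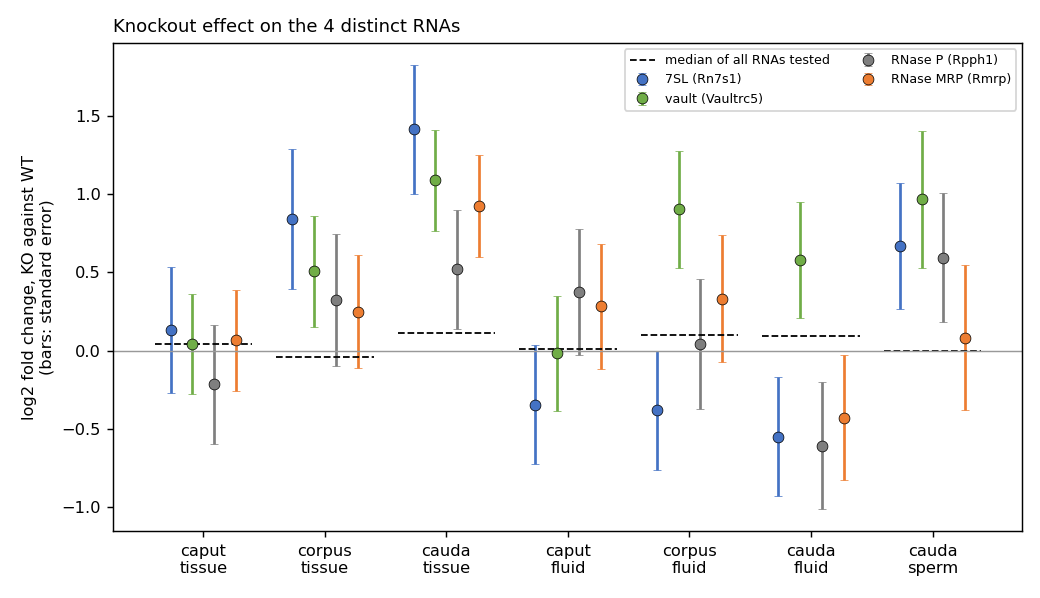
Log2 fold change of KO over WT with its SE for the 4 distinct RNAs in the 7 comparisons, with a dashed line at the median of all RNAs tested in each. 7SL is at 1.41 in cauda tissue and between -0.55 and -0.35 in the 3 fluid segments, and no point passed the threshold.

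Ratios to Rmrp were compared between genotypes with 2-sided exact permutation tests, 28 in all over 4 ratios and 7 comparisons. The ratios of Rn7s1 and Rn7s2 were nearly the same, so the 28 tests adjusted together hold 7SL under both names. The lowest p was 0.0857 and the lowest adjusted p 0.431, where 3 against 3 libraries, or 3 against 2, cannot go below 0.1 and 4 against 4 cannot go below 0.0286. Rn7s1 per Rmrp was higher in every KO than in every WT library of the cauda tissue (16.8 ± 2.58 against 11.6 ± 0.734, SD, n = 3, exact permutation p = 0.1) and lower in every KO library of the caput fluid (241 ± 48.2 against 384 ± 118, exact permutation p = 0.1). The corpus tissue also showed no overlap, with 25.7 and 27.2 in KO against 11 to 22 in WT (exact permutation p = 0.2). The difference of 7SL relative to Rmrp in the cauda tissue was 0.53 on the log2 scale, against 1.41 for its CPM.

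Segments were compared within a genotype. The share of all RNAs without overlap is given here for KO against WT only, and not between segments or materials. In KO tissue Rmrp was higher in cauda than in caput by 1.56 ± 0.33 (adjusted p = 0.00192 in edgeR) and Rpph1 by 1.24 ± 0.39 (adjusted p = 0.0242), both called and without overlap, in a comparison in which 25.7% of all RNAs were called. Vaultrc5 was higher by 0.90 ± 0.32 (adjusted p = 0.0485 in edgeR), under the fold limit, and 7SL by 0.46 ± 0.40 (adjusted p = 0.417). When libraries were scaled by their totals only, neither was called and Rmrp and Rpph1 were higher by 0.60 and 0.36, with the median of all RNAs moved by -0.754. Relative to that median both were higher under either scaling. Rmrp was called whichever library was left out (adjusted p at most 0.0187 in edgeR), whereas Rpph1 was not without KO caput replicate 2 or 3 or KO cauda replicate 1 or 2, and Vaultrc5 was called without KO cauda replicate 3 (1.17). In WT tissue no member was called between cauda and caput (23% of all RNAs were), with Rmrp at 0.70 ± 0.32 (adjusted p = 0.138 in edgeR), Rpph1 at 0.51 ± 0.38 (0.377) and 7SL at -0.82 ± 0.41 (0.166). Without caput replicate 3, the library whose labels disagree, Rmrp was called (1.05, adjusted p = 0.0441 in edgeR) and 7SL was at -0.22. Between corpus and caput tissue no member was called in WT (11.8% of all RNAs) or KO (0.631%).

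In fluid the only member called between segments was Vaultrc5, lower in WT cauda than in WT caput by a log2 fold change of -1.42 ± 0.38 (adjusted p = 0.00863 in edgeR, 25.1% of all RNAs called). The adjusted p was 0.0521 when the 2 groups were fitted alone, 0.0958 without caput replicate 1 and 0.0672 without cauda replicate 3. In KO the same difference was -0.83 ± 0.37 (adjusted p = 0.098 in edgeR, 26% called). 7SL was lower in corpus than in caput fluid by -0.96 ± 0.38 in WT (adjusted p = 0.0846 in edgeR, 17.7% called) and -0.99 ± 0.38 in KO (adjusted p = 0.0749, 19.4% called), without overlap in either genotype. With the KO corpus and caput fluid fitted alone, or without KO caput replicate 1, 7SL was called (-1.10 in the former). Rpph1 and Rmrp were not called between any fluid segments, with log2 fold changes of -0.78 to 0.51.

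Sperm and fluid of the cauda, both made by OTTR-seq, were set in 1 model over the 2328 RNAs that passed in both. On its joint scale WT fluid had 6617, 2763 and 4627 CPM of Rn7s1 and WT sperm 1024, 571, 543 and 1108. In KO, fluid had 3882, 3654 and 1758 CPM and sperm 1340, 963, 1096 and 1108. 7SL was lower in sperm by a log2 fold change of -2.52 ± 0.37 in WT (adjusted p = 1.08e-06 in edgeR) and -1.46 ± 0.36 in KO (adjusted p = 8.65e-04), without overlap in either genotype. How many of all RNAs lacked overlap between sperm and fluid is not given here.

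Vault RNA went the other way. Vaultrc5 had 23.7, 27.6 and 14.1 CPM in WT fluid and 79.3, 44.1, 39.6 and 79.2 in WT sperm, and 41.5, 27.5 and 25.8 CPM in KO fluid and 136, 94.5, 108 and 81.3 in KO sperm. It was higher in sperm by 1.47 ± 0.39 in WT (adjusted p = 0.0015 in edgeR) and 1.73 ± 0.39 in KO (adjusted p = 3.48e-04). The median of all RNAs was itself 0.99 higher in WT sperm and 0.75 higher in KO sperm, so vault RNA lay nearer to it than 7SL did. Without cauda WT fluid replicate 3 the WT value was 0.75 (adjusted p = 0.131 in edgeR), and with scaling by RNAs other than tRNA and rRNA fragments it was 0.47 (adjusted p = 0.263) while the median moved by -1.03. Rpph1 (-0.16 in WT, 0.83 in KO) and Rmrp (0.60 and 0.80) were not called. Under that scaling Rpph1 was called lower in WT sperm (-1.24, adjusted p = 0.00738 in edgeR), and without KO cauda fluid replicate 3 Rmrp was called higher in KO sperm (1.64, adjusted p = 0.00234 in edgeR). The share of all RNAs called was 73.7% in WT and 69.1% in KO. Leaving out the 4 sperm libraries under 10 M counts kept 7SL at -2.65 in WT and -1.64 in KO, and Vaultrc5 at 1.48 and 1.67, all called.

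Other RNAs of polymerase III and a group of nucleolar and telomerase RNAs made by polymerase II were read as whole lists beside the members. Of 9 polymerase III RNAs 5 were listed in tissue (Rn7s6, Rn7sk, Rny1, Rny3 and an entry of Rnu6) and 4 in fluid and sperm. In the cauda tissue none was called between KO and WT, 5 of 5 were higher in KO and their median log2 fold change was 1.04. Of the polymerase II list (U3, U8, U13 and telomerase RNA genes) 12 entries were tested, 0 were called, 12 were higher and the median was 1.24, against 0.116 for all RNAs. Positive values in the KO cauda tissue were thus found in both lists as well as in the members. The entries are not all independent of each other or of the members. Of the bases of Rn7s1, 64.7% lie in stretches shared with Rn7s6, and a read from these can count on both. The 12 polymerase II entries belong only to U3, U8, U13 and telomerase RNA, so they are not 12 distinct RNAs.

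In KO corpus fluid 3 of 4 polymerase III RNAs were called higher, the Y RNAs Rny1 (2.05 ± 0.40) and Rny3 (2.04 ± 0.71), which bind the Ro protein, and Rn7sk (1.48 ± 0.43), which holds the elongation factor P-TEFb inactive (adjusted p = 0.00235, 0.0455 and 0.0201 in edgeR). Of the polymerase II entries 1 of 12 was called higher (Snord118, with an adjusted p at the threshold), while 19.7% of all RNAs were called. In cauda against caput tissue of the KO, Rny1 (1.53) and Rn7sk (1.71) were called higher, as Rmrp and Rpph1 were (25.7% of all RNAs called). Along the fluid, Rny3 (-3.44) and Rn7sk (-1.64) were called lower in WT cauda than caput, and Rn7s6 (-1.23) and Rn7sk (-1.89) in KO cauda. In KO corpus against caput fluid, Rny1 was called higher (1.22) and Rn7s6 lower (-1.02), with 19.4% of all RNAs called. No entry of either list was called in the remaining comparisons of genotypes or segments.

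Between sperm and cauda fluid the lists parted. Rny1 (-3.61 in WT and -3.61 in KO) and Rny3 (-1.93 and -3.53) were called lower in sperm, as 7SL was, and Rn7sk (1.82 and 1.12) higher, as vault RNA was. All 12 polymerase II entries tested were called higher in sperm in both genotypes, with medians of 1.87 and 1.98. These entries are not 12 distinct RNAs. Among all RNAs 73.7% in WT and 69.1% in KO were called, and their medians were 0.99 and 0.75.

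How far the members moved together across libraries differed between the tables. In tissue the Pearson correlation of log2 CPM over 17 libraries was 0.87 for Rpph1 and Rmrp, 0.76 for Vaultrc5 and Rmrp and 0.51 for Rn7s1 and Rmrp. In fluid, over 18 libraries, the pairs of distinct members had correlations between -0.35 and 0.45. In sperm, over 8 libraries that differ widely in depth, they lay between 0.48 and 0.96. The libraries of a table share their segments and scaling, so these values are descriptions.

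The RNAs most like each member were often its own copies. In tissue Rn7s1 was closest to Rn7s6 (r = 0.98) and the 3′ entries Gm47299 and Gm47295 (0.95 and 0.94), and Rpph1 to Rprl3 (0.96), Gm22357 (0.94) and 5.8S rRNA (0.91). Rmrp was closest to Rn7sk (0.94), Gm25852 (0.92) and Gm24265 (0.91), and Vaultrc5 to Gm23815, Gm24424 and Gm24389 (0.92 to 0.93). In fluid Rn7s1 was closest to its 3′ entries (0.88 each), followed by 3′ fragments of tRNA-Thr-AGT-2 (0.83), and no longer to Rn7s6. Vaultrc5 was closest to Gm23755, Gm26102 and Gm25545 (0.92 each), whereas the closest to Rpph1 (tRNA-Asp-GTC-1-13, 0.66, 3′ fragments of tRNA-Arg-TCT-1, 0.66, and Rnu11, 0.62) and to Rmrp (3′ fragments of tRNA-Gly-GCC-1, 0.76, 5′ fragments of tRNA-Lys-CTT-3, 0.74, and 3′ fragments of tRNA-Gly-GCC-4, 0.68) were less alike. In sperm every member had 3 RNAs with r of 0.96 or more. These were Gm24514, Gm26461 and mt-Ts1 for Rn7s1, 5S repeats and Rnu11 for Vaultrc5, 5S repeats for Rpph1, and Gm22988, Snord42b and Gm22505 for Rmrp.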

How the data were processed

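The submitters' processing notes name cutadapt, UMI-tools and mm10, the authors aligned with bowtie2, and the deposited values are raw read counts per RNA from a modified tRAX, in which a read counts on every RNA it matches best, except that reads matching tRNAs best, and then rRNAs and repeats, were kept to those. Counts of RNAs with shared stretches are therefore not independent. Members and lists were chosen with earlier results of these data known, and the 3′ part of 7SL and the ratios of the copies after the counts were seen.

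Groups followed the titles of 43 libraries. Section labels that disagree (1 WT caput tissue library and 6 caput fluid libraries) were not used. edgeR 4.0.16 (R 4.3.3) fitted all groups of a table in 1 quasi-likelihood model with TMM after a filter (minimum count 10, minimum total 15), and fluid and sperm jointly for sperm against fluid. An RNA was called at an adjusted p under 0.05 (Benjamini-Hochberg over all RNAs) and a log2 fold change over 1 in size. Level correlations used log2 CPM with a prior count of 2, and count ratios a pseudocount of 1 for the log2 tests. Group ratios and percentages were compared by exact permutation tests over libraries (Python 3.11.15, scipy 1.17.1). p-values measure the spread between libraries. Each fluid and sperm library is a pool, and nothing in the labels says whether tissue replicates are separate animals.

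Replicate numbers come from the titles. They paired the libraries where every pair of deviations correlated over 0.1, for KO against WT in cauda tissue (r from 0.27 to 0.60), corpus and cauda against caput in WT tissue (0.31 to 0.55 and 0.31 to 0.63) and cauda against caput in KO tissue (0.18 to 0.60). Alternatives were DESeq2 1.42.0, its size factors in edgeR, library totals only, scaling by RNAs other than tRNA and rRNA fragments, no filter, a fit of the 2 groups alone, a replicate block, pseudocounts of 0.5 and 5, and each library left out. Chosen after seeing the data were depth over 10 M counts as a term in sperm and leaving out the 4 sperm libraries below it. Named RNAs were the members, the entries of the 2 lists that passed, and for each member the 3 RNAs with the highest correlation of log2 CPM. Sequences and positions are from GENCODE transcripts of GRCm38. The sequences of the 7SL copies are not reported here.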

Additional observations from a re-analysis of the deposited data

Results flagged for a closer look

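In sperm 3 values had 1 library farther from the other 3 than Dixon's limit for 4 samples, which chance passes in about 1 of 20 groups. The share of Gm47287 in the Rn7s1 counts of WT sperm was 3.56% in replicate 4 against 7.98% to 8.64% in the others, a gap of 0.9125 of the range on the log2 scale. Rmrp in KO sperm was at 63.8 CPM in replicate 4 against 34.0 to 37.2, a gap of 0.8918. The 3′ part (Gm47295) held 26.1% of the Rn7s1 counts in KO sperm replicate 1 against 37.7% to 40.5%, a gap of 0.8328 on the log2 scale. No cause of these was tested.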

How the results depend on the processing

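The count of members called by edgeR kept within 1.5 times in most settings. It was 2 instead of 0 with DESeq2 (KO against WT in cauda tissue), with scaling by RNAs other than tRNA and rRNA fragments (KO against WT in corpus fluid, WT cauda against caput tissue), with scaling by library totals (WT cauda against caput tissue), and with no filter or a fit of the 2 groups alone (KO corpus against caput fluid). Wherever 2 members were called instead of 0, also with a library left out, they were the identical copies Rn7s1 and Rn7s2, which are 1 distinct RNA. It was 0 instead of 2 in KO cauda against caput tissue under both of these scalings and 1 with no filter. It was 0 instead of 1 in WT cauda against caput fluid with the 2 groups fitted alone. Leaving out 1 library at a time gave 0 to 1 members called for KO against WT in cauda tissue (1 without KO replicate 3), 0 to 1 for WT cauda against caput tissue (1 without caput replicate 3), 1 to 3 for KO cauda against caput tissue, 0 to 1 for WT cauda against caput fluid, 0 to 2 for KO corpus against caput fluid (2 without caput replicate 1) and 0 to 1 for KO against WT in sperm (1 without WT replicate 4). Of 512 values under other settings 451 kept direction and side of the threshold, 9 passed it, 9 lost it and 43 turned sign, and of 416 with a library left out 369, 6, 7 and 34 did. With DESeq2 size factors in edgeR the signs turned to -0.067 for Vaultrc5 and -0.035 for Rmrp (KO against WT in caput tissue), 0.053 for Vaultrc5 (KO against WT in caput fluid), -0.034 for Rpph1 (KO against WT in corpus fluid) and -0.11 for Rmrp (KO against WT in cauda sperm). With DESeq2 the signs turned to -0.068 for Vaultrc5 and -0.035 for Rmrp (KO against WT in caput tissue), 0.053 for Vaultrc5 (KO against WT in caput fluid), -0.032 for Rpph1 (KO against WT in corpus fluid) and -0.12 for Rmrp (KO against WT in cauda sperm). With scaling by RNAs other than tRNA and rRNA fragments the signs turned to -3.6e-05 for Rn7s1, -0.11 for Vaultrc5 and -0.079 for Rmrp (KO against WT in caput tissue), -0.025 for Vaultrc5 and -0.12 for Rpph1 (WT corpus against caput tissue), -0.054 for Rpph1 (WT cauda against caput tissue), -0.24 for Rn7s1 (KO cauda against caput tissue), -0.75 for Rpph1 and -0.48 for Rmrp (KO against WT in corpus fluid), 0.063 for Rpph1 (WT corpus against caput fluid), 0.057 for Rmrp (KO cauda against caput fluid), -0.10 for Rmrp (KO against WT in cauda sperm) and -0.56 for Rmrp (WT sperm against fluid). With scaling by library totals the signs turned to -0.088 for Rn7s1, -0.17 for Vaultrc5 and -0.16 for Rmrp (KO against WT in caput tissue), -0.094 for Rpph1 (KO against WT in cauda tissue), -0.0070 for Vaultrc5 and -0.14 for Rpph1 (WT corpus against caput tissue), -0.45 for Rn7s1 and -0.044 for Vaultrc5 (KO cauda against caput tissue), 0.20 for Vaultrc5 (KO against WT in caput fluid), -0.19 for Rmrp (KO against WT in cauda sperm) and 0.26 for Rpph1 (WT sperm against fluid). With no filter on low counts the signs turned to -0.0042 for Vaultrc5 (KO against WT in caput tissue), 0.14 for Vaultrc5 (KO against WT in caput fluid), -0.12 for Rpph1 (KO against WT in corpus fluid) and -0.018 for Rmrp (WT sperm against fluid). With a fit of the 2 groups alone the signs turned to -0.033 for Vaultrc5 and -0.0050 for Rmrp (KO against WT in caput tissue) and 0.17 for Vaultrc5 (KO against WT in caput fluid). With the replicate number as a block the signs turned to -0.037 for Vaultrc5 (KO against WT in caput tissue) and 0.18 for Vaultrc5 (KO against WT in caput fluid). Leaving out 1 library at a time, the values that turned sign ranged as follows: Rn7s1 -0.14 to 0.60, Vaultrc5 -0.055 to 0.10, Rpph1 -0.47 to 0.23 and Rmrp -0.12 to 0.27 (KO against WT in caput tissue), Rn7s1 -0.60 to 0.37 and Rpph1 -0.054 to 0.80 (WT corpus against caput tissue), Vaultrc5 -0.17 to 0.14 (WT cauda against caput tissue), Vaultrc5 0.0053 to 0.28 (KO against WT in caput fluid), Rpph1 -0.27 to 0.23 (KO against WT in corpus fluid), Rpph1 -0.27 to 0.53 (WT cauda against caput fluid), Rmrp -0.92 to 0.18 (KO cauda against caput fluid), Rmrp -0.22 to 0.47 (KO against WT in cauda sperm). None of the values that turned sign had been called, and the cause was not tested. Depth limited the fluid and sperm most, where a member had as few as 26 and 24 counts.

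With the replicate number as a block, 2 members were called instead of 0 for KO against WT in cauda tissue, where the numbers paired the libraries, and no other call changed in the 3 further comparisons with paired numbers. Elsewhere libraries shared only a number. There the block gave 0 members called instead of 1 in WT cauda against caput fluid and 2 instead of 0 in KO corpus against caput fluid. In WT corpus against caput fluid every library correlated best with its own number, with correlations of 0.058 to 0.082, which is a hint from the data and not from the design.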

Other observations

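The ratios of counts on copies and inner entries were also compared between genotypes, in 28 exact permutation tests chosen after the counts were seen. Counts on Rprl3 as a percentage of those on Rpph1 were 15.9%, 16.9% and 11.1% in KO cauda fluid and 4.53%, 7.01% and 6.32% in WT, without overlap (higher in KO, 2-sided exact permutation p = 0.1, the smallest that 3 against 3 can give, adjusted p = 0.933). In caput fluid the same ratio was lower in KO, at 8.33%, 10.9% and 14.5% against 14.8%, 22.3% and 24.5% in WT, also without overlap (exact permutation p = 0.1, adjusted p = 0.933). These percentages rest on few counts of Rprl3. A cauda fluid library had 6 to 16 in WT and 9 to 38 in KO, and a caput fluid library 23 to 26 in WT and 20 to 30 in KO. The shared-block entry Gm47287 held 3.15%, 3.65% and 3.73% of the Rn7s1 counts in KO corpus fluid and 1.45%, 1.58% and 2.25% in WT, again without overlap (exact permutation p = 0.1, adjusted p = 0.933). These 3 were the only tests of the 28 without overlap between genotypes, and none of the 28 passed the correction. Chance alone separates 3 against 3 libraries with a probability of 0.1, so a few of 28 tests can lack overlap by chance. Whether the difference in Rprl3 itself differs between caput and cauda fluid was not tested.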
